A study of Mus musculus with 4 samples.

Results

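The 52 genes described here encode the machinery of cell division: the kinase Cdk1 and its regulators, the spindle assembly checkpoint, the chromosomal passenger complex, kinetochore proteins, kinesins, condensin, the anaphase trigger and the transcription factors that drive them. Members were fixed by name, and the probe sets of the deposited table whose only gene symbol is a member were averaged per gene. All 52 were measured, out of 19938 genes in all, through 53 probe sets, so that only Top2a rested on more than 1. The study measured total RNA of mouse cells on 4 single-colour arrays, 1 for each sample. They were fibroblasts of mouse embryos (MEF), 178B5 and 492B4 as induced pluripotent stem (iPS) lines, and v6.5 as the line of embryonic stem (ES) cells. MEF and both iPS lines share ancestry from DBA/2, C57BL/6 and 129S4 mice, whereas v6.5 is an F1 of 129 and C57BL/6 mice, which makes strain another difference between ES and the other samples. No treatment or age distinguished the samples. MEF grew in serum medium. The 3 pluripotent lines grew in serum-containing ES cell medium on SNL feeder fibroblasts whose division had been blocked with mitomycin C. The passage of the MEF, and whether feeder cells were removed before RNA was isolated, are not given in the sources used here.

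A dividing cell makes most of these transcripts in a burst that starts as DNA replication ends and peaks at mitosis, and degrades many of the proteins on leaving it. In resting cells the MuvB proteins, joined to an E2F factor and a pocket protein, hold the genes silent. In cycling cells MuvB instead joins B-Myb, the product of Mybl2, and then Foxm1, and activates them through a short promoter element called the cell cycle genes homology region (CHR). Mouse pluripotent cells are known for rapid cycles with a short first gap phase, while primary fibroblasts divide more slowly. In bulk RNA of this kind, more dividing cells and more transcript per dividing cell cannot be told apart.

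The deposited values are logarithms, taken here as log2, and each probe set had been centred so that its median over the 4 arrays was 0 (within 5e-07). A value is therefore a position relative to the other arrays and not a level. In the 51 members with MEF lowest, the lower pair of the 3 lines lies symmetrically about 0, which leaves differences between arrays untouched. The labels were borne out by cell type markers: 11 of 12 pluripotency markers were called higher in the lines than in MEF, and 11 of 19 fibroblast markers lower. The latter count was 3 without iPS 178B5, 6 without iPS 492B4 and 18 without ES, and the markers' median difference was -3.34 log2. Over all genes the median difference of the lines from MEF was -0.10 log2, and -0.30 log2 when the arrays were centred on reference genes instead. The 13 reference genes measured were themselves uneven, from -1.53 log2 for Gusb to 2.77 log2 for Tfrc, with a median of 0.22 log2. Their centring is therefore an alternative scaling and not a fixed baseline. Each line stood as a replicate, so the p-values measure only the spread between these lines, with MEF, on a single array, taken to have the same spread. Precision is limited by having so few arrays. An exact permutation of 3 lines against 1 array could not go below a one-sided p of 0.25.

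Mitotic genes were higher in pluripotent cells than in fibroblasts almost throughout. Of the 52 genes, 44 were called higher in the mean of the 3 lines than in MEF and 0 lower, at an adjusted p under 0.05 in limma's test and a difference of at least 1 log2. Over all genes, 7.9% were called higher (1576) and 9.71% lower (1936), a split that became 1202 and 2555 with reference gene centring. The members' median difference was 1.70 log2, a 3.25-fold difference, with a range from 0.18 to 4.17 log2. It was 1.65 log2 for iPS 178B5, 1.82 log2 for iPS 492B4 and 1.52 log2 for ES, each against MEF. All 3 lines lay above MEF for 51 of the 52 genes, against 30.1% of all genes, and at least 1 log2 above it for 44, against 7.03%. Without regard to size, 48 members had an adjusted p under 0.05 and were higher, against 10.8% of all genes.

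**Figure D1:**
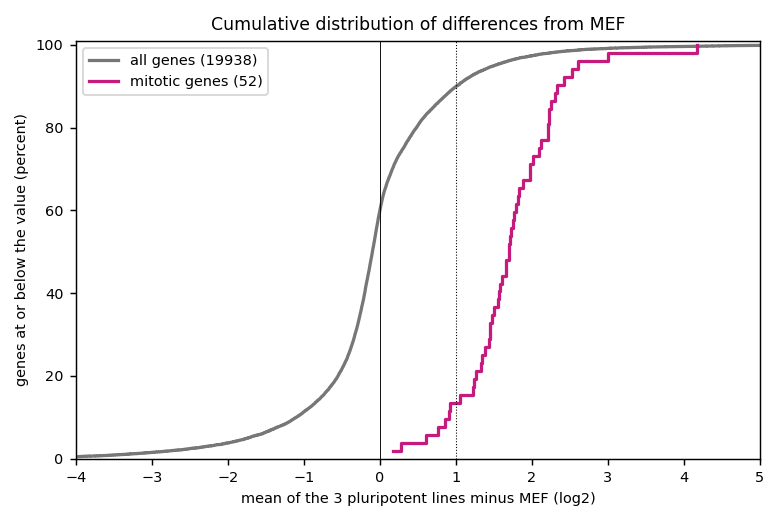
Cumulative share of genes (percent, vertical axis) at or below each difference between the mean of the 3 pluripotent lines and MEF (log2, horizontal axis), for all 19938 genes and the 52 mitotic genes. The dotted line marks 1 log2. The mitotic genes start at 0.18 log2 and have their median at 1.70 log2, while the median of all genes is -0.10 log2.

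Leaving out a line changed the count most for iPS 178B5. Without iPS 178B5 the members called higher numbered 25, against 3.07% of all genes, while their median difference was 1.74 log2. The count was 43 without iPS 492B4, against 7.27% of all genes, and 45 without ES, against 9.94% of all genes. In a fit with iPS and ES as separate groups, 45 members were higher in iPS than in MEF (9.94% of all genes) and 41 higher in ES than in MEF (9.14% of all genes). These contrasts share the MEF array. The 4 members called for iPS and not for ES (7.69%, against 2.79% of all genes) were Cdc25c, Spc25, Prc1 and Top2a, with adjusted p for iPS against ES of 0.44, 0.52, 0.61 and 0.49.

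The promoters of these genes were examined because the members moved together and because the CHR is the element through which B-Myb and MuvB act on them. RefSeq promoters (build GRCm38.p6, 250 bases before to 50 after each start) were matched by symbol for 43 of the 52 members. The CHR letters TTTGAA were searched on both strands. They were present in the promoters of 30 of 43 members (69.8%), against 17.3% of the 15614 tested genes with a promoter, and in 17.9% of all 32851 promoters in the table. Within 50 bases of the start they were present in 27 of 43 members (62.8%), against 4.49% of tested genes. For genes called higher outside the members the shares were 16.4% and 6.51%. The letters CCAAT, the binding site of the factor NF-Y, were found in 32 of 43 members (74.4%), against 41.7% of tested genes and 37.4% of all promoters. Both motifs occurred together in 26 members (60.5%), against 7.94% of tested genes. The 4 promoters below are those of members that had the highest difference of their role group and held TTTGAA within 150 bases before the start. They belong to the kinesin gene Kif22 (chr7:127042421-127042570, minus strand), the cytokinesis gene Ect2 (chr3:27153879-27154028, minus strand), the condensin gene Ncapg (chr5:45669775-45669924, plus strand) and the separase gene Espl1 (chr15:102296143-102296292, plus strand). Each is shown 5′ to 3′ on the gene's strand and ends at the base before the start, with the CHR (TTTGAA, or TTCAAA on the other strand) and the CCAAT box (CCAAT, or ATTGG on the other strand) in capitals.
Kif22: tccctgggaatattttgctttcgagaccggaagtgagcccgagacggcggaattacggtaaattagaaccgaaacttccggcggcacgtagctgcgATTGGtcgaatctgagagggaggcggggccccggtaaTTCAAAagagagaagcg
Ect2: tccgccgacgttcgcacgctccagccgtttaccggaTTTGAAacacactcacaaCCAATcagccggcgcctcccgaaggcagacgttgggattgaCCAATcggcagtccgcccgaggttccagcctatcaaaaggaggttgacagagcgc
Ncapg: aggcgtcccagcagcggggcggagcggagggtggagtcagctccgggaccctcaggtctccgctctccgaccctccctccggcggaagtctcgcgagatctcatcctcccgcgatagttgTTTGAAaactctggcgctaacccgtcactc
Espl1: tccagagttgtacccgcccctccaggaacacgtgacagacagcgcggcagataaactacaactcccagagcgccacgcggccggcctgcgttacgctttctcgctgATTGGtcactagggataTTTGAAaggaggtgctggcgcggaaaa
In Kif22, Ncapg and Espl1 the CHR shown lies shortly before the start, and in Ect2 it lies farther upstream than both CCAAT boxes shown. Outside that stretch Ect2 also holds a CCAAT box and then TTTGAA, with their middles 3.5 and 42 bases after the start. Ncapg has no CCAAT box within the stretch shown.

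Holding TTTGAA did not sort the members by size. The 30 members with TTTGAA had a median difference from MEF of 1.71 log2 and the 13 without it also 1.71 log2. The latter include Mybl2, which had the largest difference of all. A variant CHR, TTCGAA, which reads the same on both strands, was found in 3 of 43 members (6.98%), against 2.14% of tested genes and 1.56% of all promoters. Bub1, second in size among the members, holds the variant and not TTTGAA, so the 13 are not all free of a CHR. The E2F letters GGCGGGAA were found in 2 of 43 (4.65%), against 3.53% of tested genes and 2.19% of all promoters. The motifs were not limited to the members: further mitotic genes held TTTGAA in 27 of 56 (48.2%, and 35.7% within 50 bases of the start) and CCAAT in 34 of 56 (60.7%). A list of DNA replication genes held TTTGAA in 5 of 27 (18.5%), CCAAT in 17 of 27 (63.0%) and GGCGGGAA in 6 of 27 (22.2%). The differences between these lists and the members were not tested. None of the 4 letter strings contains another, although some, such as CCAAT and TTTGAA, can share bases at their ends. A match is a description of the sequence and not of binding.

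**Figure D2:**
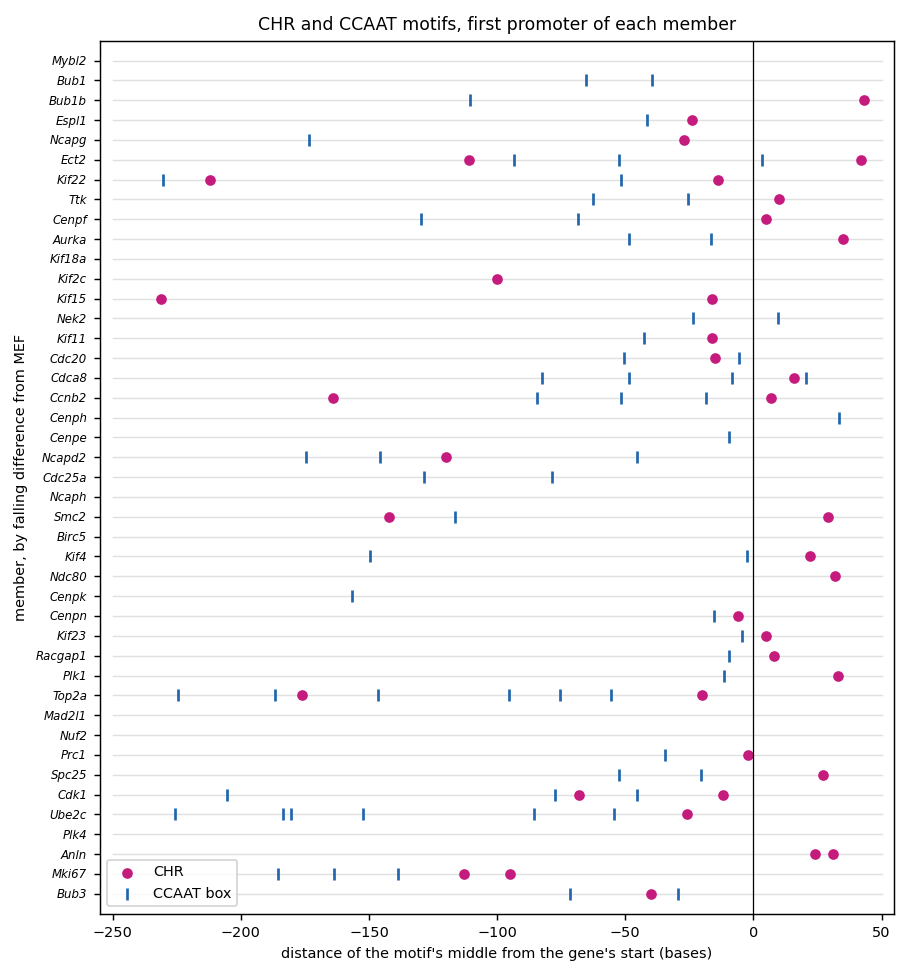
Position of the CHR (TTTGAA on either strand, dots) and the CCAAT box (bars) in the first listed promoter of each of 43 members, as distance in bases from the gene's start, with members ordered from the largest to the smallest difference from MEF. Most CHR dots lie within 50 bases of the start, from Bub1b near the top to Bub3 at the bottom, and members with no dot occur at all heights.

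Cdk1 is the kinase that starts mitosis, with cyclins A2 and B2 (Ccna2, Ccnb2) as its partners and Cdc25a and Cdc25c as the phosphatases that activate it. Of these 5 genes 3 were called higher. Cdc25c had the highest difference, with values of -1.51 on MEF, 0.15 on iPS 178B5, 0.97 on iPS 492B4 and -0.15 on ES. Every line lay above MEF, but the lines lay so far apart that the mean difference of 1.83 ± 0.58 log2 (SD, n = 3 lines, as for each ± value that follows) was not called (adjusted p = 0.057). Leaving out iPS 492B4 gave a called difference of 1.51 log2 (adjusted p = 0.032), and leaving out ES gave 2.07 log2, also called (adjusted p = 0.023). Cdk1 itself stood at -0.89 on MEF, -0.039 on iPS 178B5, 0.086 on iPS 492B4 and 0.039 on ES. The lines lay close together and well above MEF, but the difference of 0.92 ± 0.06 log2 (adjusted p = 0.017) was under the fold minimum. The remaining 3 genes had differences between 1.35 and 1.81 log2. Ccna2 was no longer called without iPS 178B5, although its difference stayed at 1.35 log2.

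Among the mitotic kinases Aurka, Plk1, Plk4 and Nek2, 3 of 4 were called higher. Aurka, which matures centrosomes and builds the spindle, read -2.08 on MEF, 0.099 on iPS 178B5, 0.42 on iPS 492B4 and -0.099 on ES. Its difference was 2.22 ± 0.26 log2 (adjusted p = 0.0092). Plk1 was no longer called without iPS 178B5, where its difference was 1.41 log2. Plk4, the kinase that sets centriole number, read -0.79 on MEF, 0.083 on iPS 178B5, 0.17 on iPS 492B4 and -0.083 on ES. At 0.85 ± 0.13 log2 (adjusted p = 0.029) it fell short of the fold minimum, although no line overlapped MEF.

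The spindle assembly checkpoint delays anaphase until every chromosome is attached, and 4 of its 5 genes were called higher. Bub1, a checkpoint kinase at kinetochores, read -2.80 on MEF, 0.22 on iPS 178B5, 0.58 on iPS 492B4 and -0.22 on ES. This difference of 2.998 ± 0.399 log2 (adjusted p = 0.0097) was second in size among the members. Bub3, the partner that carries Bub1 and Bub1b to kinetochores, read -0.25 on MEF, 0.0086 on iPS 178B5, -0.0086 on iPS 492B4 and 0.053 on ES. Bub3 was 0.27 ± 0.03 log2 above MEF (adjusted p = 0.23) and was not called. The other 3 genes, Bub1b, Mad2l1 and the kinase gene Ttk, had differences between 1.27 and 2.61 log2. Of these, Mad2l1 was no longer called without iPS 178B5, although its difference stayed at 1.27 log2.

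All 4 genes of the chromosomal passenger complex, which corrects faulty attachments and then directs cytokinesis, were called higher, within a narrow range. Cdca8, which encodes the subunit borealin, read -1.87 on MEF, 0.074 on iPS 178B5, 0.31 on iPS 492B4 and -0.074 on ES, a difference of 1.97 ± 0.19 log2 (adjusted p = 0.0083). Birc5, which encodes survivin, read -1.54 on MEF, 0.11 on iPS 178B5, 0.36 on iPS 492B4 and -0.11 on ES, a difference of 1.66 ± 0.23 log2 (adjusted p = 0.014). In both genes ES was the lowest line and iPS 492B4 the highest. The kinase gene Aurkb and the scaffold gene Incenp lay between them in size. Without iPS 178B5 only Cdca8 of the 4 was called, with adjusted p of 0.061 for Incenp, 0.062 for Birc5 and 0.087 for Aurkb.

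Kinetochore and centromere genes link chromosomes to microtubules, and 9 of 9 were called higher. Without iPS 178B5 the count was 2 of 9. Cenpf, a large kinetochore protein of late division phases, read -2.09 on MEF, 0.41 on iPS 178B5, 0.23 on iPS 492B4 and -0.23 on ES, a difference of 2.22 ± 0.33 log2 (adjusted p = 0.012). Spc25, a subunit of the Ndc80 complex, read -0.96 on MEF, 0.072 on iPS 178B5, 0.26 on iPS 492B4 and -0.072 on ES. Its difference of 1.05 ± 0.17 log2 (adjusted p = 0.024) was just past the fold minimum and became 0.85 log2 with reference gene centring and 0.96 log2 without iPS 492B4. The 4 genes of the Ndc80 complex (Ndc80, Nuf2, Spc24 and Spc25) lay between 1.05 and 1.61 log2. The inner kinetochore genes Cenph, Cenpk and Cenpn lay between 1.50 and 1.79 log2.

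The 8 kinesin genes, which encode motors that separate poles, align chromosomes and bundle the midzone, were all called higher. Kif22, a chromosome arm motor whose promoter is printed above, read -2.29 on MEF, 0.034 on iPS 178B5, 0.035 on iPS 492B4 and -0.034 on ES. The lines were nearly identical, and the difference was 2.30 ± 0.04 log2 (adjusted p = 0.0055). Kif23, a midzone motor needed for cytokinesis, read -1.39 on MEF, -0.016 on iPS 178B5, 0.24 on iPS 492B4 and 0.016 on ES, a difference of 1.47 ± 0.14 log2 (adjusted p = 0.010). The other 6 motors lay between 1.58 and 2.21 log2, among them the pole-separating motor gene Kif11 at 2.02 log2. Kif23 was no longer called without iPS 178B5, where its difference was 1.52 log2. Kif4 had the least certain call of the group (adjusted p = 0.038), which was lost without iPS 178B5 (adjusted p = 0.12) and without iPS 492B4 (adjusted p = 0.058).

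Of 5 genes grouped under spindle midzone and cytokinesis, which include the spindle assembly gene Tpx2, 4 were called higher. Without iPS 178B5 the count was 2, where Tpx2 (adjusted p = 0.078) and Prc1 (adjusted p = 0.099) were no longer called. Ect2, which switches on the GTPase RhoA at the division site, read -2.22 on MEF, 0.0011 on iPS 178B5, 0.34 on iPS 492B4 and -0.0011 on ES, a difference of 2.34 ± 0.20 log2 (adjusted p = 0.0065). Anln, the actin scaffold of the contractile ring, read -0.60 on MEF, -0.016 on iPS 178B5, 0.50 on iPS 492B4 and 0.016 on ES. Here iPS 492B4 stood apart from the other two lines, and the difference of 0.77 ± 0.29 log2 was not called (adjusted p = 0.11). The remaining genes, Tpx2, Prc1 and Racgap1, lay between 1.23 and 1.44 log2.

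Condensin, which compacts chromosomes, and topoisomerase II alpha, which untangles them, had 6 of 6 genes called higher. Ncapg, a condensin I subunit, read -2.35 on MEF, 0.014 on iPS 178B5, 0.21 on iPS 492B4 and -0.014 on ES, a difference of 2.42 ± 0.12 log2 (adjusted p = 0.0055). Top2a read -1.16 on MEF, 0.084 on iPS 178B5, 0.51 on iPS 492B4 and -0.084 on ES, a difference of 1.33 ± 0.31 log2 (adjusted p = 0.033). That mean joined probe sets that disagreed, with differences of 2.23 and 0.44 log2. When 2 further probe sets that the annotation assigns jointly to Top2a and Hibadh were added, the value was 0.63 log2 and was not called (adjusted p = 0.060). The SMC core genes Smc2 and Smc4 stood at 1.70 and 1.45 log2. Without iPS 178B5, Smc4 (1.44 log2) and Top2a (1.38 log2) were no longer called.

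Anaphase begins when Cdc20 and the ubiquitin-conjugating enzyme Ube2c mark securin and cyclin B for destruction, which frees separase (Espl1) to cut cohesin. Espl1 read -2.40 on MEF, 0.10 on iPS 178B5, 0.40 on iPS 492B4 and -0.10 on ES, a difference of 2.53 ± 0.25 log2 (adjusted p = 0.0074). Cdc20 stood at 1.97 log2 and was also called. Ube2c read -0.86 on MEF, -0.039 on iPS 178B5, 0.14 on iPS 492B4 and 0.039 on ES. Its difference of 0.91 ± 0.09 log2 (adjusted p = 0.020) was under the fold minimum, with every line above MEF.

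The transcription factor genes held both the highest and the lowest difference of the set. Mybl2 read -4.06 on MEF, -0.0095 on iPS 178B5, 0.34 on iPS 492B4 and 0.0095 on ES. The difference of 4.17 ± 0.20 log2 (adjusted p = 0.0048) was the largest of the 52 and ranked 69 among all genes. Foxm1 read -0.16 on MEF, 0.16 on iPS 178B5, -0.28 on iPS 492B4 and 0.18 on ES. It was the single member in which a line, iPS 492B4, lay below MEF, and the difference of 0.18 ± 0.26 log2 was not called (adjusted p = 0.65). With reference gene centring its sign turned, to -0.026 log2. The proliferation marker Mki67 read -0.57 on MEF, 0.078 on iPS 178B5, 0.016 on iPS 492B4 and -0.016 on ES. Its lines agreed closely, but the difference of 0.60 ± 0.05 log2 (adjusted p = 0.044) was small beside that of most members.

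**Figure D3:**
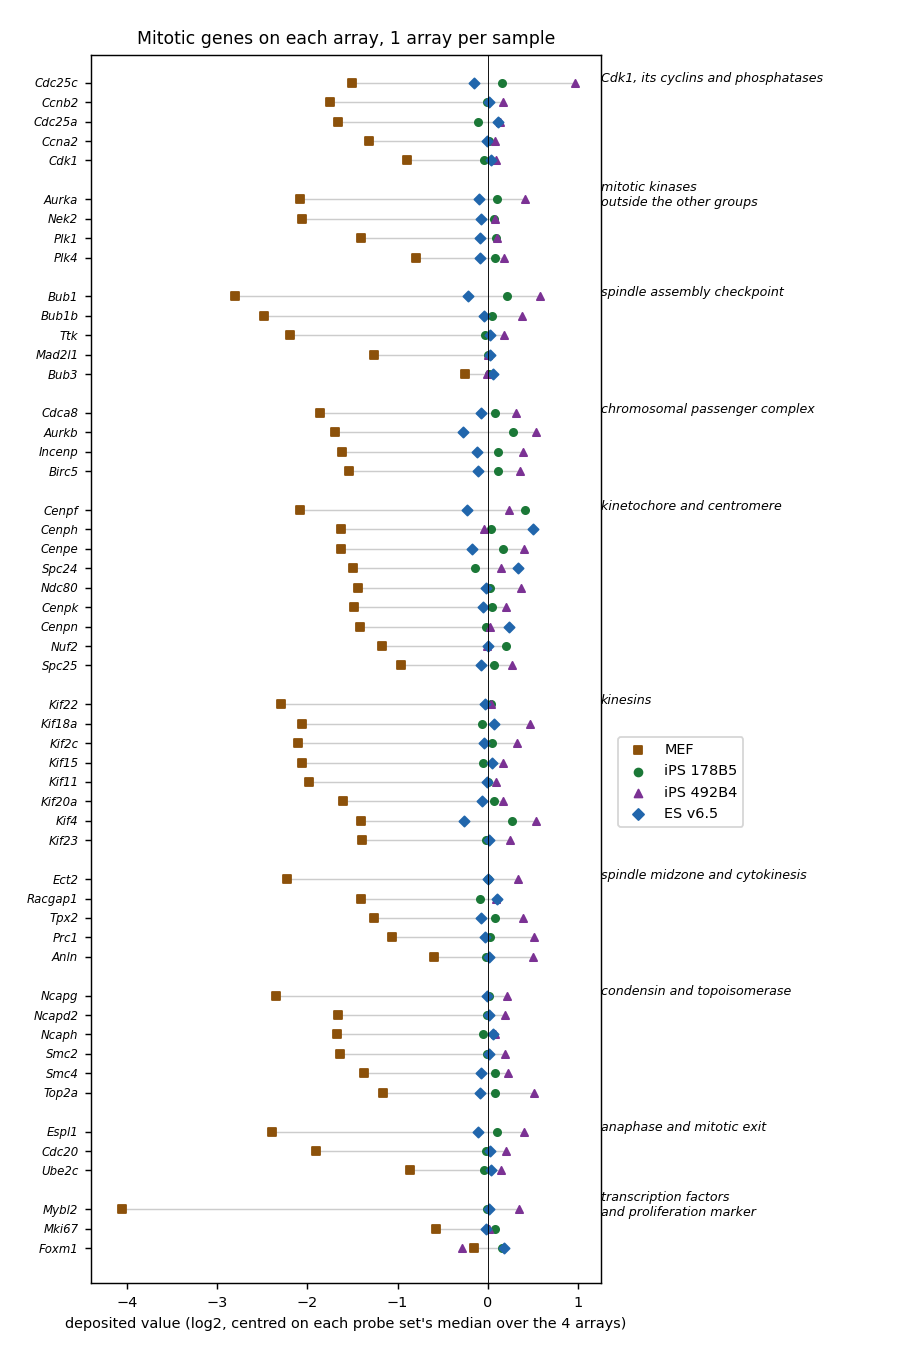
Deposited value (log2, centred on the median over the 4 arrays, horizontal axis) of each of the 52 mitotic genes on MEF, iPS 178B5, iPS 492B4 and ES v6.5, 1 array each, grouped by role. The MEF square lies left of all 3 lines in 51 genes, and Foxm1 at the bottom is the exception.

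By size, 15 members were at least 2 log2 above MEF (2.62% of all genes), 30 lay between 1 and 2 log2, and 7 lay under 1 log2. Those 7 were Cdk1, Plk4, Bub3, Anln, Ube2c, Foxm1 and Mki67. The SD over the 3 lines had a median of 0.15 log2 for the members and 0.16 log2 for all genes, while the median absolute difference from MEF was 1.70 log2 for the members and 0.38 log2 for all genes.

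Other genes of cell division were taken from lists of the same kind. Of 64 further mitotic genes 45 were called higher and 0 lower, with a median of 1.37 log2. The cyclin F gene Ccnf at 2.78 log2 and the kinesin gene Kif20b at 2.65 log2 stood highest, and Zwint at -0.29 log2 (adjusted p = 0.21) and the centromere DNA-binding gene Cenpb at -1.51 log2 (adjusted p = 0.055) lowest, neither called. The count was 17 without iPS 178B5. Of 35 DNA replication genes 24 were called higher and 0 lower, with a median of 1.69 log2, led by Mcm10 at 2.87 log2 and Cdt1 at 2.86 log2. Tk1 at 0.53 log2 and Ccne2 at -0.38 log2 stood lowest and were not called. Leaving out iPS 178B5, or centring on reference genes, lowered the count of the replication genes less than that of the further mitotic genes. The shares called higher were 70.3% of the further mitotic genes and 68.6% of the replication genes, beside 7.9% of all genes.

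Centrosome and cohesin genes gave smaller values. For the centrosome and gamma-tubulin list the count was 8 of 23 higher and 0 lower, with a median of 0.65 log2, from -0.02 log2 for Tubgcp3 and 0.04 log2 for Haus7 to 1.75 log2 for Haus6 and 2.24 log2 for Cep55. Without iPS 178B5 it was 3. The cohesin list had 4 of 14 higher and 0 lower, with a median of 0.52 log2. Its 2 highest genes were Esco2, which establishes cohesion during replication, at 3.77 log2, and Cdca5, which encodes sororin, at 2.57 log2. Stag2 at 0.08 log2 and Hdac8 at -0.60 log2 were lowest and not called.

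Of the cell division lists, regulators had the smallest shares called higher. Of 19 MuvB, E2F and pocket protein genes 3 were higher and 1 lower, with a median of 0.38 log2. The MuvB subunit gene Lin9 was higher at 1.20 log2 and the repressor gene E2f6 lower at -1.24 log2, while E2f8 (1.22 log2, adjusted p = 0.11) and Rbl2 (-0.72 log2, adjusted p = 0.32) were not called. With reference gene centring or without iPS 178B5, 0 of this list were called higher. Of 18 genes of the anaphase-promoting complex and its partners 2 were higher and 1 lower, with a median of 0.12 log2 that became -0.08 log2 with reference gene centring. The highest were the inhibitor gene Fbxo5 at 2.15 log2 and the ubiquitin-conjugating enzyme gene Ube2s at 1.00 log2, and the lowest were Ube2d1 at -0.87 log2, not called, and Anapc16, called lower at -1.12 log2. Without iPS 178B5 the counts were 1 higher and 0 lower.

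**Figure D4:**
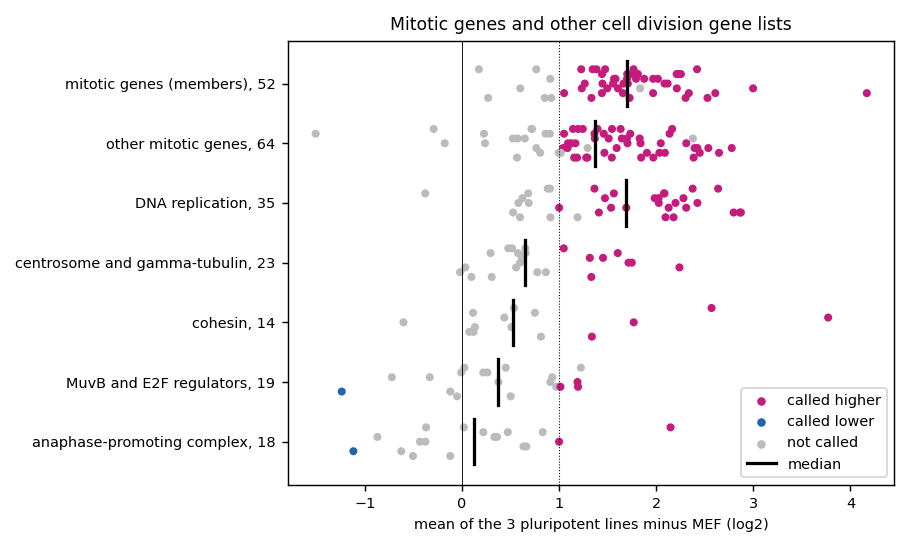
Difference between the mean of the 3 pluripotent lines and MEF (log2, horizontal axis) for the 52 mitotic genes and for 6 other lists, with the number of measured genes after each name; each dot is a gene and each bar a list's median. Medians run from 1.70 log2 for the members and 1.69 log2 for DNA replication down to 0.12 log2 for the anaphase-promoting complex.

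Between the pluripotent lines the mitotic genes lay closer together than they did to MEF. Their median absolute difference of iPS from ES was 0.18 log2, much like the 0.19 log2 of all genes. No member was called for iPS against ES in limma's test, nor was any gene of the whole table (0%), also with robust moderation. At an unadjusted p under 0.05 there were 5 of 52 members, against 15.4% of all genes. The median of iPS minus ES was 0.15 log2 for the members and -0.06 log2 for all genes. It was 0.05 log2 for iPS 178B5 alone and 0.23 log2 for iPS 492B4 alone. Both iPS lines lay above ES in 30 members (57.7%) and below it in 7 (13.5%), against 31% and 47.7% of all genes. With equal array medians these counts were 38 and 4 (73.1% and 7.69%), against 36.8% and 40.9% of all genes. With reference gene centring they were 30 and 7, against 30.4% and 48.5% of all genes.

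The widest gaps between iPS and ES were those of Cdc25c, Aurkb, Kif4, Bub1, Cenpf and Cenph. Aurkb stood 0.55 log2 (iPS 178B5) and 0.81 log2 (iPS 492B4) above ES, a mean of 0.68 log2 (SE 0.18, adjusted p = 0.25). Kif4 was 0.53 and 0.80 log2 above ES (mean 0.67 log2, SE 0.18, adjusted p = 0.26). Bub1 was 0.44 and 0.80 log2 above ES (mean 0.62 log2, SE 0.21, adjusted p = 0.31). In these genes iPS 492B4 lay farther from ES than iPS 178B5 did. Cdc25c, at 0.31 and 1.12 log2 above ES, had the largest mean (0.71 log2, SE 0.38, adjusted p = 0.44), most of it from iPS 492B4. Cenpf, by contrast, stood 0.64 log2 (iPS 178B5) and 0.46 log2 (iPS 492B4) above ES (mean 0.55 log2, SE 0.16, adjusted p = 0.27). Cenph ran the other way, at -0.46 log2 (iPS 178B5) and -0.53 log2 (iPS 492B4) relative to ES (mean -0.50 log2, SE 0.14, adjusted p = 0.27).

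DNA replication genes lay on the opposite side. In 23 of 35 of them both iPS lines were below ES and in 5 above it, with a median of iPS minus ES of -0.15 log2, which was -0.11 log2 with equal array medians and -0.16 log2 with reference gene centring. Of the 64 further mitotic genes both iPS lines were above ES in 36 and below it in 15, with a median of 0.18 log2. The difference between the replication and mitotic lists was not tested. Fibroblast markers moved with the same contrast: 17 of 19 were lower on both iPS arrays than on ES. Their summed value was 55.5 on MEF, -14.7 on iPS 178B5, -19.1 on iPS 492B4 and 12.7 on ES, and their part in the difference between iPS and ES was not tested. Primitive endoderm markers went the other way, with 12 of 14 higher on both iPS arrays than on ES. Their summed value was -8.76 on MEF, 11.3 on iPS 178B5, 6.33 on iPS 492B4 and -12.2 on ES, and their part was not tested either.

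**Figure D5:**
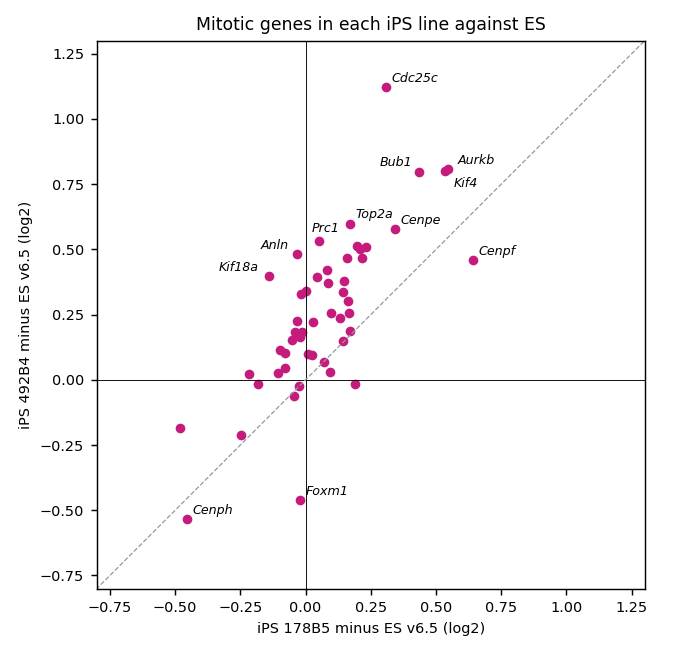
Each of the 52 mitotic genes by its difference from ES v6.5 (log2) on iPS 178B5 (horizontal axis) and on iPS 492B4 (vertical axis); the dashed line marks equal differences. Most points lie above the dashed line, Cdc25c reaches 1.12 log2 on iPS 492B4, and Cenph and Foxm1 lie lowest.

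The iPS lines were compared by value, with no test, since each had 1 array. Of the 52 genes 46 were higher on iPS 492B4 than on iPS 178B5 (88.5%), against 46.8% of all genes, with a median gap of 0.20 log2 against -0.02 log2. The count was also 46 with equal array medians (49% of all genes) and 42 with reference gene centring (43.3% of all genes). In 42 members iPS 492B4 was the highest of the 3 lines (80.8%), against 29.9% of all genes. The gaps were small: 3 members (5.77%) were at least 0.5 log2 higher on iPS 492B4, against 3.66% of all genes. They were Cdc25c (0.82 log2), Kif18a (0.54 log2) and Anln (0.51 log2). The next were Prc1, a bundler of midzone microtubules that read -1.06 on MEF, 0.026 on iPS 178B5, 0.51 on iPS 492B4 and -0.026 on ES, and Top2a, with gaps of 0.48 and 0.43 log2. Foxm1 went the other way, 0.44 log2 lower on iPS 492B4. Kif18a, a motor that shortens kinetochore microtubules, read -2.06 on MEF, -0.069 on iPS 178B5, 0.47 on iPS 492B4 and 0.069 on ES. DNA replication genes did not share the shift, with 15 of 35 higher on iPS 492B4 and a median gap of -0.01 log2, and this difference between lists was not tested. Of the further mitotic genes, 49 of 64 were higher on iPS 492B4. Markers of other cell types also moved in this contrast: 2 of 14 primitive endoderm markers (median gap -0.44 log2) and 3 of 19 fibroblast markers (median gap -0.28 log2) were higher on iPS 492B4 than on iPS 178B5. Their part in the gap of the mitotic genes was not tested.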

How the data were processed

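The authors deposited 1 table of log2 values (the base was taken as 2, since it is not stated) for 28853 probe sets on 4 arrays. Per the submitters' processing notes GCRMA produced the values: it removes background, scales arrays to each other and joins probes into probe sets. No version of it was stated. The centring of each probe set removes expression levels, so no filter on dim probe sets was possible. The platform annotation supplied gene names: 21789 had 1 symbol and were used, 1621 had several and 5443 had none. Probe sets of a gene were averaged, which gave 19938 genes.

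limma 3.58.1 in R 4.3.3 was fitted on all genes (lmFit, eBayes), with p-values adjusted by Benjamini-Hochberg. The 2-group fit (3 lines, MEF) had 2 residual degrees of freedom. The 3-group fit (MEF, iPS, ES) had 1, from the iPS pair, and assumed that the lone MEF and ES arrays vary like it. The fit was tested on simulated data. These gave MEF the same spread as the lines, so that assumption was not tested. Alternatives were scaling, probe set rule, moderation, thresholds and leaving out each line. Members, gene lists and motifs were chosen with earlier results of these data known. Named genes were, per role group, the highest and lowest, all that were not called, the 6 widest gaps between iPS and ES with both lines on 1 side, and the 6 widest between the iPS lines. For the other cell division lists they were the 2 highest, the 2 lowest and every called fall. Cell type markers are given by counts, medians or summed values, and their genes are not named. Of the reference genes only the highest and the lowest are named. Further members are named for their role and were chosen after their values were seen.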

Additional observations from a re-analysis of the deposited data

How the results depend on the processing

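The count of members called higher than MEF stayed between 41 and 48 under both scalings, the probe set rules, robust moderation, no fold minimum and the requirement of a call in both contrasts of the 3-group fit. With reference gene centring the members' median difference was 1.50 log2, and Foxm1 turned to -0.026 log2. At an adjusted p under 0.01 the count was 27 (575 of all genes), and for ES against MEF 18 (586 of all genes). Leaving out each line gave 25 to 45 members and 613 to 1981 of all genes called higher, a median difference of 1.61 to 1.74 log2, and a median of iPS minus ES of 0.05 to 0.23 log2. In none of these settings was a member called lower, or called for iPS against ES where that fit was run. Without an iPS line the 3-group fit has no residual degrees of freedom and gave no test. The counts of the other lists without each line were added after seeing the data. No paired analysis was possible because MEF and ES had 1 array each. With 1 array per line, values rest on arrays whose signal over background is unknown.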
